A study of Drosophila melanogaster with 2 samples.

Results

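X-linked genes of middle length were compared between an immunoprecipitate of dBigH1 and input DNA from testes of the fruit fly. The members were the 1070 genes on the X that are 2 to 20 kb wide and start above 500 kb, out of 15421 genes in the deposited table and 2317 on the X. They were set against all 3876 genes of the same width on the autosomal arms 2L (1117 genes), 3L (1239) and 3R (1520). The rule used position and width and no measured value. Both libraries came from whole testes of adult w1118 males, a stock named for a mutant allele of white, with no treatment. In all 2000 testes were dissected, accessory glands were taken off by hand, and chromatin was sonicated in pools of 1000. The dBigH1 library was made with an anti-dBigH1 antibody and the input library with none. There was 1 library of each, so no value has a replicate check, no p-value is given, and every comparison describes these 2 libraries.

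dBigH1 is the linker histone variant of the Drosophila germline. Linker histones bind DNA at the entry and exit of the nucleosome and help to compact chromatin. dBigH1 takes the place of the somatic histone H1 in early embryos. It is also found in germ cells, though not at every stage. Males have a single X and a pair of each autosome. In somatic cells of males the MSL complex, guided by roX RNAs, acetylates histone H4 along the X and raises its transcription, while the male germline is known to lack that complex on its X. Whole testes hold germ cells of every stage as well as cyst, hub and sheath cells, so fewer cells with dBigH1 and less dBigH1 per cell cannot be told apart in these values. Cell markers could not be used to check the tissue, since the libraries measure DNA and not RNA.

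Library totals, recovered from the deposited values, were 12747726 reads for input and 2864636 for dBigH1. X members had 50 to 1330 input reads, with a median of 257, and 1 to 1408 dBigH1 reads, with a median of 24. Arm genes of the same width had medians of 423 and 46. Fewer than 10 dBigH1 reads were found in 82 X members (7.66%) and in 3 arm genes. Single X genes are therefore measured less precisely than arm genes, with a median counting SD of 0.31 against 0.22 on the log2 scale. The measure used throughout is the read ratio, that is dBigH1 reads over input reads, each scaled by its library total. It is given on the log2 scale relative to the median of the arm genes, which had a ratio of 0.494, and intervals are 95% exact Clopper-Pearson intervals that cover counting error only. In all, 375 X members (35.0%) overlapped another gene of the table, as did 40.8% of the arm genes, and overlapping genes share reads.

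The first question was how the single X compared with the arms in each library. In input the median RPKM, reads in a gene divided by its length and by the library total, was 4.84 for X members and 8.40 for arm genes. The X thus stood at 0.575 of the arms, above the 0.5 that 1 copy against 2 would give. In the dBigH1 library the medians were 2.06 and 4.11, and the X stood at 0.502 of the arms. After the values of X genes were multiplied by 2 for the single copy, the X lay at 1.151 times the arms in input and at 1.004 times in dBigH1. Per copy, then, the median dBigH1 signal of X genes was level with the arms, while the input signal of the same genes was higher.

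The excess of input was of like size at every width. After scaling, input of X genes was 1.149 times that of the arms at 2 to 3 kb, 1.163 at 3 to 5 kb, 1.149 at 5 to 10 kb and 1.110 at 10 to 20 kb. The dBigH1 signal went from 0.957 and 0.985 of the arms in the 2 shorter classes to 1.08 and 1.04 in the 2 longer ones. Summed over all members, reads per kb gave a scaled X of 1.14 times the arms in input and 1.12 times in dBigH1.

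**Figure D1:**
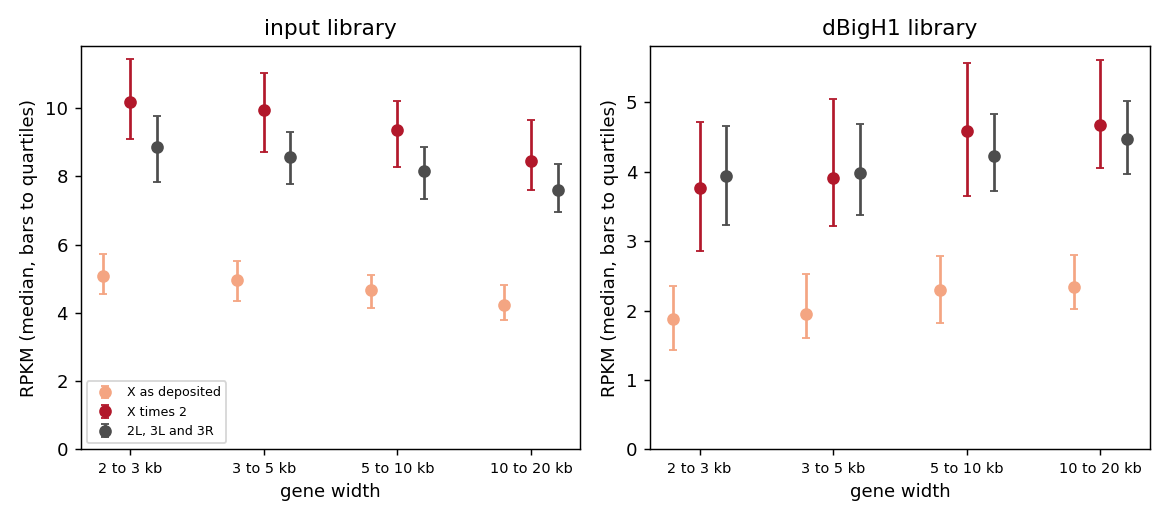
Median RPKM of X members and of 2L, 3L and 3R genes in 4 width classes, for input (left) and dBigH1 (right), with bars to the quartiles over genes; X values are shown as deposited and multiplied by 2. In input the scaled X medians lie above the arms in all 4 classes, while in dBigH1 they lie below the arms in the 2 shorter classes and above in the 2 longer ones.

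The dBigH1 read ratio of X members was lower than that of arm genes of the same width at the median. The median X member lay at -0.16, or 0.894 of the arm median, with quartiles at -0.60 and 0.24. The quartiles of the arm genes were -0.28 and 0.26. Against each arm alone the difference was -0.18 for 2L, -0.18 for 3L and -0.15 for 3R, and the 3 arms lay within 0.03 of each other. The upper quartiles of the X and the arms were close, and the X differed from the arms mainly by a longer lower tail. In the ratio itself the copy number of the X cancels, so that scaling leaves it as it is.

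The lower tail shows in counts of genes. At least 1.5-fold below the arm median were 273 X members, or 25.5%, against 9.08% of arm genes and 16.8% of all genes in the table. At least 1.5-fold above it were 103, or 9.63%, against 7.48% of arm genes and 17.1% of all. The table as a whole includes many short genes with few reads, which scatter widely, so the arm genes of the same width are the closer comparison. By the interval of each gene, 203 X members (19.0%) lay wholly below the arm median and 152 (14.2%) wholly above it. The same shares were 10.9% and 18.7% for arm genes and 9.02% and 18.3% for all genes. Scaled by library totals alone, with no centring on the arms, 913 of 1070 X members lay 1.5-fold below input and 7 above. Of the X members beyond the fold 0.761% were then higher, in place of 27.4%. Arm genes were low on this scale too, with 3348 of 3876 below and 24 above (0.712% higher, in place of 45.2%). Over all 15421 genes 11838 lay below and 467 above (3.80% higher), so the count of 913 is not particular to the X.

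The size of the difference depended on how genes were summed. By summed reads, which weight long and deeply covered genes, the X was at 0.986 of the arms (interval 0.976 to 0.996), or -0.02 on the log2 scale, and at 0.954 (0.945 to 0.964), or -0.07, without the single gene w. With at least 10 dBigH1 reads, a limit that removes low X genes by construction, the median difference was -0.09, and on the deposited MAnorm score the X lay 0.33 score units above the arms.

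Width bore on the comparison. X members of 2 to 3 kb (330 genes) had a median of -0.41, where the arms were at -0.14, a difference of -0.27. At 3 to 5 kb (323 genes) the X was at -0.28 and the arms at -0.08, a difference of -0.19. At 5 to 10 kb (257 genes) the medians were 0.02 and 0.06, and at 10 to 20 kb (160 genes) 0.17 and 0.25, with differences of -0.04 and -0.07. On both the X and the arms wider genes thus had higher ratios, and the gap between X and arms was larger in the 2 shorter classes than in the 2 longer ones. Among X members of 2 to 3 kb 39.7% lay at least 1.5-fold below the arm median, against 16.9% of arm genes, and among those of 10 to 20 kb 3.75% did, against 0.362%. Reads per gene move with width: the median X member had 13 dBigH1 reads in the shortest class and 92 in the longest, against 27 and 175 on the arms. The part of depth in the gap was not tested.

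X members also scattered more widely. The interquartile range was 0.85 on the log2 scale on the X and 0.54 on the arms. It was wider on the X in each width class, from 0.77 against 0.61 at 2 to 3 kb to 0.58 against 0.34 at 10 to 20 kb. X and arm genes with similar numbers of input reads can be compared as well: with 250 to 400 input reads the range was 0.88 for 265 X members and 0.59 for 1361 arm genes, and with 400 to 700 it was 0.68 and 0.49. The median of the X relative to arm genes with as many reads, which are narrower genes, differed between classes. It was -0.48 at 150 to 250 input reads (374 X members and 442 arm genes), -0.04 at 250 to 400, 0.09 at 400 to 700 and -0.06 above that. Over these classes together it was -0.19. The 144 X members with fewer than 150 input reads were left out of that value, since only 3 arm genes had so few. The share of genes whose interval missed the median of their own group was 31.6% on the X and 29.6% on the arms. Intervals are narrower with more reads, and the X had the lower depth, so these shares are not directly comparable. The part of depth in the scatter was not tested.

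**Figure D2:**
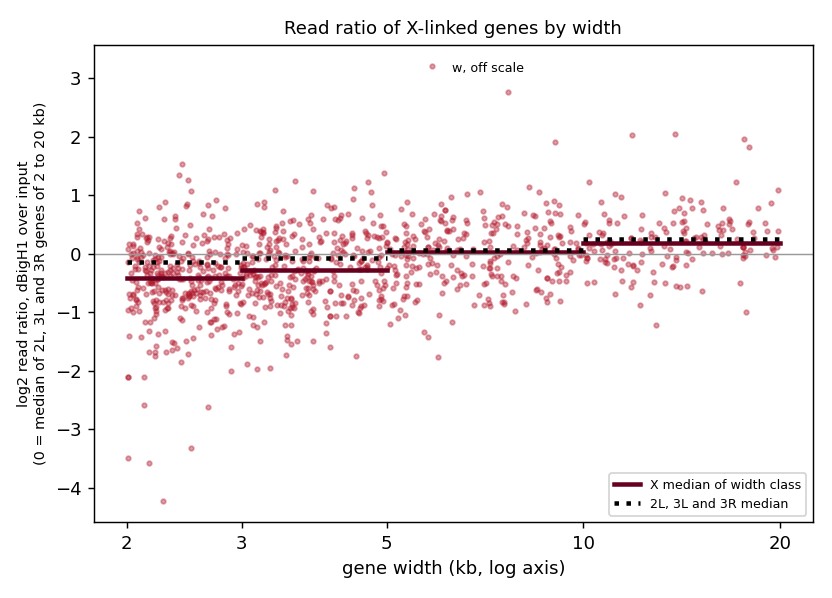
Read ratio of each X member (points) against gene width in kb on a log axis, with the medians of X members (solid) and of arm genes (dotted) in 4 width classes; 0 is the median of all arm genes and w, at 5.68, is drawn at the edge. The X medians lie below the arm medians in all 4 classes, by 0.27 at 2 to 3 kb and by 0.04 at 5 to 10 kb.

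Along the X, the ratio was followed in steps of 1 Mb, numbered from the telomere, with the first step starting at 0.5 Mb. Of 23 steps, 22 held at least 20 members, from 26 to 72. The medians of 17 of the 22 steps lay below the arm median. The distal tip was lowest, at -0.63 in step 1 (26 genes, quartiles -1.12 and -0.09) and -0.43 in step 2 (57 genes, quartiles -0.84 and -0.10). Steps 3 and 4 were at -0.26 and -0.18, and step 5 was at 0.01. Medians were thus higher with each step from step 1 to step 5.

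In the middle of the X the medians varied from step to step. Steps 6 and 7 were at -0.23 and -0.20, step 8 was at 0.01, and steps 9 and 10 were at -0.40 and -0.23. From step 11 to step 17 all medians lay between -0.08 and 0.22. Within that stretch step 15 was the highest of the X, at 0.22 (34 genes, quartiles -0.44 and 0.62), and step 13 was next, at 0.09. With the 20 genes of step 15 that overlap no other, its median turned to -0.16, and step 13, at 0.10, was then the highest. Towards the centromere the medians were -0.28 in step 18, -0.16 in step 19, -0.43 in step 20, 0.01 in step 21 and -0.02 in step 22. Step 23 held 2 members, both below 1.5-fold.

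The quartile ranges over genes overlapped in all 21 pairs of neighbouring steps, which describes the scatter of single genes and not the precision of the medians. In step 1 none of 26 members lay 1.5-fold above the arm median and 14 lay 1.5-fold below, while 10 had intervals wholly below it. Its extremes among genes with a symbol other than a CG number were Sec22, at 0.232 of the arm median, and mus81, an endonuclease gene, at 0.24 (-0.59 to 0.97). In step 15, 10 of 34 lay above and 8 below. The extremes by the same rule were Fbxl4, an F-box gene, at -1.47 (-2.55 to -0.57), and the gene be. Step 2 had 1 above and 21 below, and step 20 had 3 above and 23 below. Most members beyond the fold were therefore low in steps 1, 2 and 20, whereas step 15 held both kinds. Low members also outnumbered high ones over all X members, at 273 against 103, so this was not particular to those steps.

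Summed reads gave the same lowest step but another highest one. Step 1 was at -0.62 relative to the arms (-0.75 to -0.50) and step 2 at -0.47 (-0.55 to -0.40). Step 3 was the highest, at 0.75 (0.70 to 0.81), but w held 43.6% of its dBigH1 reads and without w it was at -0.05. Step 4 was at 0.36 (0.28 to 0.43), and at 0.09 without Gas8. Step 15 was at 0.63 (0.56 to 0.69), apart from its neighbour step 14 at -0.01 (-0.07 to 0.06), and stayed at 0.45 without its gene with the most reads, CG9009. Step 11 turned from 0.11 (0.05 to 0.18) to -0.21 without CG42249.

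**Figure D3:**
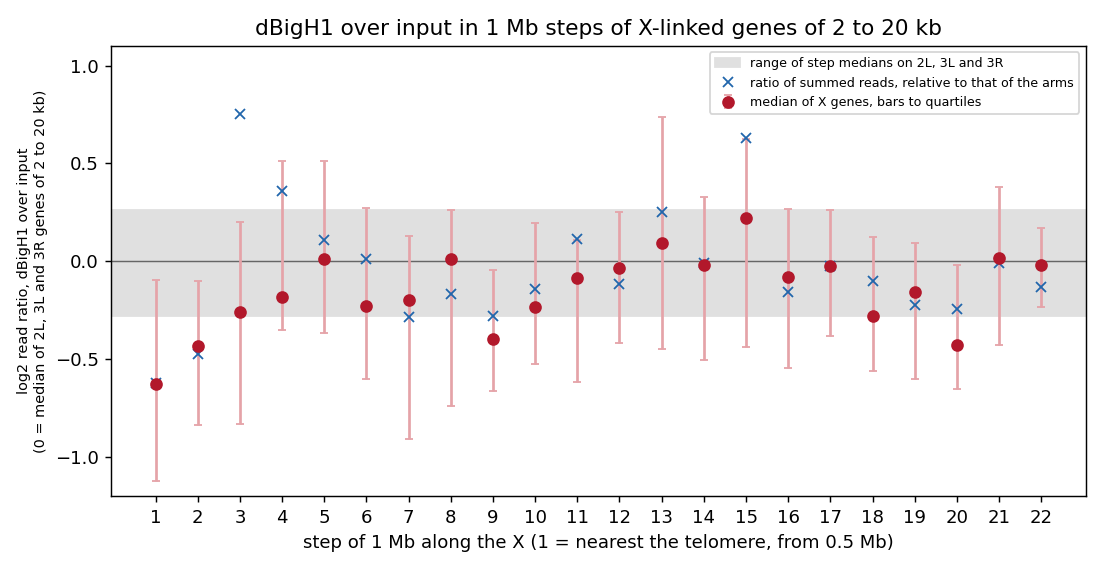
Read ratio in 22 steps of 1 Mb along the X, numbered from the telomere, as medians of the members with bars to the quartiles over genes (circles) and as ratios of summed reads relative to that of the arms (crosses). The grey band spans the medians of 2L, 3L and 3R steps with at least 20 genes. Medians of 5 steps lie below the band, the lowest at -0.63 in step 1, and none lies above it, while the sums of steps 3 and 15 lie far above it.

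Among steps with at least 20 genes, those on the arms varied less. Of 76 steps on 2L, 3L and 3R, 71 held that many, and their medians ran from -0.28 to 0.26, with an SD of 0.12. Arm steps under the limit reached higher than any X step. They were at 0.66 in 2L step 23 (13 genes), 0.87 in 3L step 24 (10 genes) and 1.22 in 3L step 25 (2 genes). The others were at 0.16 in 2L step 18 and -0.10 in 3L step 11. With these steps the arms would span more than the X. On the X they ran from -0.63 to 0.22, with an SD of 0.20, and 5 steps (numbers 1, 2, 9, 18 and 20) lay below the lowest arm step while none lay above the highest. Of the arms, 2L had the widest spread, with an SD of 0.16, against 0.10 on 3L and 0.09 on 3R. X steps rest on fewer reads than arm steps. With genes that overlap no other, over the same 22 and 71 steps, the X ran from -0.65 to 0.10 (SD 0.18). The arms ran from -0.34 to 0.47 (SD 0.14), and 5 X steps lay below the lowest arm step. Step 3, at -0.37, was then among the 5 in place of step 18, at -0.11. Step 1 then rested on 9 genes. With steps of under 20 such genes left out, step 1 among them, the range was 0.52 on the X (SD 0.15) against 0.81 on the arms (SD 0.14).

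**Figure D4:**
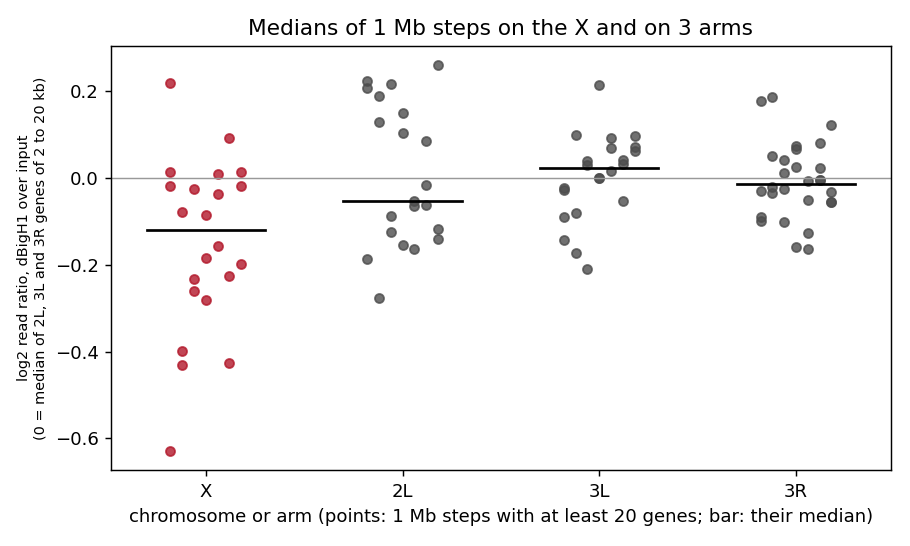
Median read ratio of each 1 Mb step with at least 20 genes on the X and on 2L, 3L and 3R (points), with the median of the steps (bar); 0 is the median of all arm genes. X steps reach down to -0.63, below the lowest arm step at -0.28, and the highest X step, at 0.22, lies inside the range of the arms.

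Steps with a lower ratio had more input signal. Across the 22 steps the correlation of the median ratio with median input RPKM was r = -0.74 (rho = -0.79) and that with median dBigH1 RPKM was r = 0.81 (rho = 0.74). Both values enter the ratio itself, all points come from the same 2 libraries, and the figures are given as a description. On 2L, 3L and 3R the correlation with input was -0.84, -0.55 and -0.62. Step medians of input RPKM on the X ran from 4.11 in step 13 to 5.21 in step 2, and those of dBigH1 RPKM from 1.62 in step 1 to 2.52 in step 15. The median width of members was 3229 bp in step 1 and 4874 bp in step 15. Set against arm genes of the same width class, step 1 was still lowest, at -0.52, and step 15 highest, at 0.17.

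Neighbouring genes resembled each other weakly. Among members that overlap no other gene, 507 pairs of consecutive genes less than 20 kb apart had rho = 0.20, against 0.19 on 2L, 0.08 on 3L and 0.15 on 3R. These are weak correlations in sparse counts, and no more is read from them.

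Among single genes the highest was w, the eye colour transporter gene (FBgn0003996, chrX:2684632-2690499, build dm3). It had 1408 dBigH1 reads against 248 input reads, an RPKM of 83.8 against 3.32, and a ratio 51.1-fold that of the arm median (44.6 to 58.7). CG32795, the next gene distally (chrX:2676939-2684600), had 316 reads against 417, 6.82-fold (5.87 to 7.91). Both lie within the coordinates of kirre, a gene of 394149 bp outside the width limit, and share their reads with it. In the 166 kb distal to w, apart from CG32795, lay 16 members with a median of -0.86, of which 9 were at least 1.5-fold below the arm median and none 1.5-fold above. Over all X members 25.5% were that low. The far edge of the stretch was set at brv3, which is among the 10 lowest named members and counts in the 16. These counts therefore rest on an edge picked by a low value, and they describe this stretch only. The highest of the 16 was Syx4, a syntaxin gene, at 0.37 (-0.13 to 0.84). Of the 9 with a symbol other than a CG number, 5 were low. They included the clock gene per (25 dBigH1 reads against 419), the channel gene brv3 (2 against 180) and fs(1)Ya (4 against 115), which encodes a nuclear envelope protein of the egg and early embryo.

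Of the 500 members with a symbol other than a CG number and at least 50 input reads, Gas8 came after w. Gas8 encodes a subunit of the axonemal complex that regulates dynein in cilia and flagella (FBgn0029667, chrX:3385042-3398884). With 390 dBigH1 reads against 851 input reads, its ratio was 4.12-fold (3.65 to 4.66). The gene listed as be (chrX:14918467-14936093) followed at 3.89-fold (3.47 to 4.35), with 442 reads against 1023, and lies inside hiw, which is 52725 bp wide and stood at 2.02-fold (1.86 to 2.20). CG42249, at 600 against 1330, and CG9009, at 462 against 1180, reached 4.06-fold and 3.52-fold and are named here after their values were seen. Apart from w and hiw, the genes named so far in this paragraph are 10 to 20 kb wide, in the class where ratios were highest. Narrower genes were as high, such as CG32795, given above, of 7662 bp. FBgn0030882, of 9057 bp and listed as CG32495 and GS, was at 3.75-fold (3.14 to 4.46) on 185 reads against 444. The second row with those symbols, of 6324 bp, was at 1.54-fold (1.11 to 2.09).

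The Sdic genes, which encode sperm-specific dynein intermediate chains and arose by duplication on the X, were high as a group. The table held 4 members, all in step 21, where the median was 0.01. Sdic1 had 71 dBigH1 reads against 334 input reads, and a relative log2 ratio of 0.94 (0.55 to 1.31). Sdic3 had 65 against 283, at 1.05 (0.64 to 1.44). Both rows listed as Sdic2 and Sdic4 together were at 1.12 (0.71 to 1.51) and 1.37 (0.99 to 1.74). The summed reads of the 4 rows were at 0.98 (0.78 to 1.17). That value is relative to the summed reads of the arm genes and not to their median, so it is not on the scale of the single rows. Near-identical copies can exchange reads in the alignment, so single values are uncertain.

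Further genes among the 10 highest were the following. The mucin gene Muc12Ea had 150 reads against 575 and lay at 1.23 (0.96 to 1.49). Cpr11A, a cuticle gene, was at 1.25 (0.64 to 1.82) on 32 reads. The nicotinic acetylcholine receptor gene listed as gfA, now nAChRalpha7, was at 1.08 (0.83 to 1.33) on 166 reads. These 3 had intervals wholly above the arm median. Input RPKM was 2.79 for gfA and 4.42 for Muc12Ea, where X members of 10 to 20 kb had a median of 4.23. For Cpr11A it was 3.83, where X members of 2 to 3 kb had a median of 5.09.

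The lowest named members were short genes. Ir11a, an ionotropic receptor gene, had 1 dBigH1 read against 108 input reads, at -3.58 (-8.90 to -1.08), and brv3 was at -3.32 (-6.38 to -1.45). dalao, a subunit of the Brahma chromatin remodelling complex, had 3 against 166, at -2.62 (-4.91 to -1.05). Sec22, a SNARE gene of vesicle transport, had 4 against 155, at 0.232 of the arm median (0.0625 to 0.607). Mcm3, part of the replicative helicase, had 5 against 180, at 0.25 of it (0.0802 to 0.594). SNF1A, the catalytic subunit of AMP-activated kinase, was at -1.96 on 6 (-3.42 to -0.81), and ND75, a subunit of respiratory complex I, at -1.90 on 6 (-3.36 to -0.75).

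The remaining 3 of the 10 lowest were cactin, at -1.86 (-3.32 to -0.71), the signal recognition particle receptor gene listed as Gtp-bp, at -1.76 (-3.40 to -0.50), and fs(1)Ya, at -1.68 (-3.58 to -0.28). The widths of the 10 lowest ran from 2125 bp for Sec22 to 3311 bp for SNF1A, and each had 6 dBigH1 reads or fewer. Every one of their intervals lay below the arm median, but the intervals are wide, and their order among themselves is not resolved at this depth. Below all of these was CG14232, with 1 dBigH1 read against 168 (-4.22, -9.53 to -1.72).

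X-linked genes were also described by role, in 10 lists that together held 91 members. Of the 91, 11 lay at least 1.5-fold above the arm median and 20 below, with a median of -0.07, where the same values over all members were 103 (9.63%), 273 (25.5%) and -0.16. With 3 to 16 members a list, the counts below describe these genes only. Genes of meiosis, the spindle and the cell cycle had a median of -0.44, with 6 of 15 at least 1.5-fold below and none above. Low members were mus101, a replication and repair protein (21 dBigH1 reads against 353, -0.90, -1.61 to -0.27), Grip84 of the gamma-tubulin ring complex (-0.85, -1.62 to -0.16), the chromokinesin nod (-0.82, -1.49 to -0.21) and the central spindle kinesin Klp3A (-0.73, -1.39 to -0.13). The meiotic recombination gene mei-218 was at -0.22 (-0.72 to 0.25) and the repair kinase gene mei-41 at -0.38 (-0.89 to 0.09). CycD, encoding a G1 cyclin, was the highest, at 0.17 (-0.63 to 0.88).

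Among 13 genes in the list of chromatin proteins, 5 lay 1.5-fold below and 2 above. The list median was -0.27, or -0.52 relative to arm genes of the same width class. The low members include pcm, at -0.67 (-1.26 to -0.14), which encodes a cytoplasmic exoribonuclease and not a chromatin protein. They also include HDAC6, a mainly cytoplasmic deacetylase, so the low count does not rest on chromatin proteins alone. su(s), which acts on nascent RNA at the chromatin, had 30 dBigH1 reads against 532 (-0.98, -1.56 to -0.45). The deacetylase gene HDAC6 was at -0.89 (-1.56 to -0.28), and trr, a methyltransferase of histone H3, at -0.62 (-1.12 to -0.15). mof, the acetyltransferase of the MSL complex, was at -0.23 (-1.04 to 0.49). The tandem Polycomb genes parted, with ph-p at 0.88 (0.65 to 1.11) on 185 reads against 903 and ph-d at -0.20 (-0.70 to 0.26) on 41 against 425. As close copies of each other they may exchange reads. ph-p had an input RPKM of 6.65, above the upper quartile of X members in its width class, at 4.82.

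Developmental transcription factors and signals had a list median of 0.24, with 1 of 8 below the arm median, where 59.9% of all X members lay, and 1 at least 1.5-fold above. disco was at 0.74 (0.34 to 1.13), lz at 0.52 (0.24 to 0.79), B-H2 at 0.39 (-0.03 to 0.79) and run, also a counting element of sex determination, at 0.27 (-0.69 to 1.11). The lowest was hep, a kinase of the JNK pathway, at -0.07 (-0.44 to 0.28). Neuronal genes had a median of 0.14, with 2 of 10 at least 1.5-fold above. These were gfA, given above, and shi, the dynamin of vesicle recycling, at 0.92 (0.65 to 1.17) on 150 reads against 715. The one below was per, at -0.90 (-1.54 to -0.31).

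Of 12 genes in the signalling list, 11 lay within 1.5-fold of the arm median. Among the 11 was ras (raspberry), an eye colour gene and not a Ras signalling gene. It was in the pigment list as well, and the counts given here include it. The JAK kinase hop was at -0.25 (-0.74 to 0.20), its receptor gene dome at -0.02 (-0.47 to 0.41), and the ligand genes os, upd2 and upd3, which act in the testis niche pathway, at -0.35, 0.15 and -0.38, all with intervals spanning the arm median. fu, a kinase of Hedgehog signalling, was at -0.90 (-1.79 to -0.12), and dsh, of Wnt signalling, was the highest, at 0.23 (-0.38 to 0.78). With os, mof and run, the list of sex determination and dosage compensation had 3 members, none beyond 1.5-fold.

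Germline genes had a median of -0.30, with 2 of 8 at least 1.5-fold below. fs(1)N, needed for the eggshell and early embryo, was at -0.71 (-1.36 to -0.13) on 25 dBigH1 reads against 369. mxc, which organises the histone locus body, was at -0.61 (-1.19 to -0.07). The germline differentiation gene otu was at -0.27 (-1.01 to 0.39), fs(1)Yb, a piRNA factor of somatic gonad cells, at -0.34 (-1.08 to 0.32), and fs(1)K10, of oocyte polarity, at 0.28 (-0.35 to 0.85). Both ovo, at 0.77 (0.55 to 0.98), and mei-P26, at 1.15 (0.97 to 1.33), act in the germline too but are 22633 and 26055 bp wide and so lie outside the width limit.

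Of 16 housekeeping genes, 3 were at least 1.5-fold above and 4 below, the latter a share close to that of all X members. Their median was -0.08, and turned to 0.02 with genes that overlap no other and to 0.0013 relative to arm genes of the same width class. Pgd, of the pentose phosphate pathway, was the lowest, at -1.01 (-1.87 to -0.26), with RpII215, the largest subunit of RNA polymerase II, at -0.82 (-1.40 to -0.30). Act5C, a cytoplasmic actin gene, was at 0.67 (0.21 to 1.11) and the small GTPase gene Rala at 0.79 (0.51 to 1.05). Of 5 genes in the list of testis and sperm tail, 2 dynein subunits were above, ctp at 0.69 (0.43 to 0.95) and sw at 0.64 (0.31 to 0.96). Since sw is a close relative of the Sdic genes, it may exchange reads with them, and its value is uncertain. Below were 2, Grip84 and misato (mst), the latter at -0.76 on 8 dBigH1 reads with an interval that spans the arm median. Dhc16F was at -0.56 (-0.99 to -0.15). With genes that overlap no other, the list median turned from -0.56 to 0.01. Among 9 genes in the pigment list, dor, of vesicle transport to pigment granules, was lowest, at -0.88 (-1.74 to -0.13), and 7 lay within 1.5-fold. The other beyond the fold was w.

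**Figure D5:**
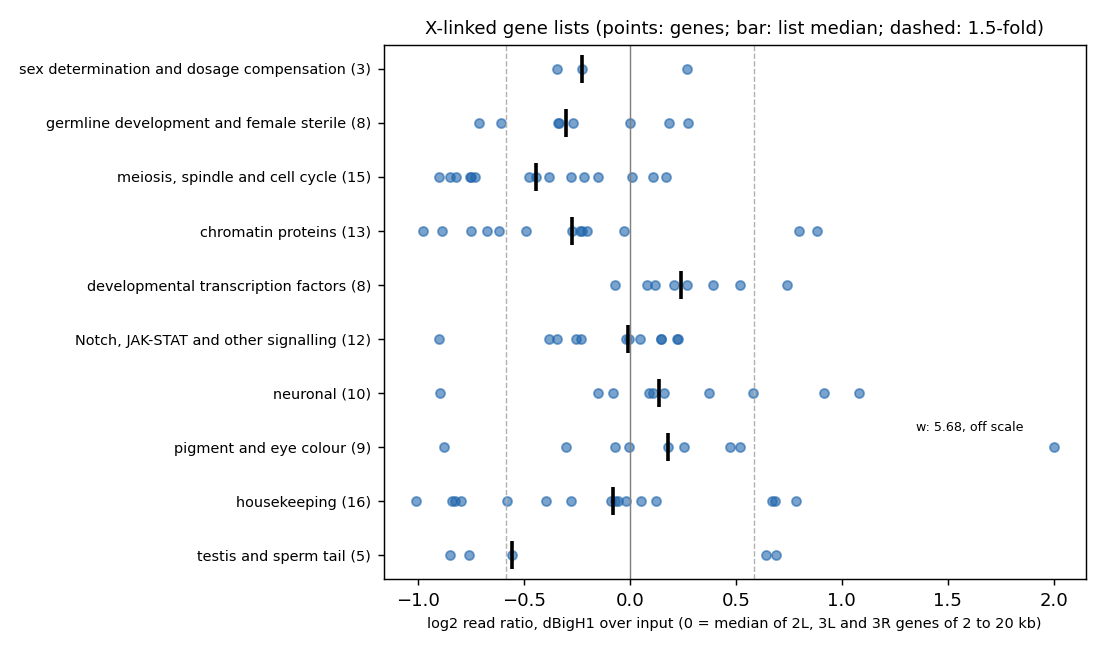
Read ratio of each X member in 10 lists of genes by role (points, number of members in parentheses) with the list median (bar) and lines at 1.5-fold; 0 is the median of arm genes of 2 to 20 kb, and w is drawn at the edge. No gene of meiosis, spindle and cell cycle lies above the upper line, and no developmental factor lies below the lower one.

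The genes next to the limits of the rule, apart from gfA, lay within 1.5-fold of the arm median. Just inside 2000 bp, an unnamed gene of 2006 bp (FBgn0264394) was at -0.15 (-1.65 to 1.05), and just outside CG11436, of 1996 bp, was at -0.27 (-1.31 to 0.63). gfA, of 19884 bp, lay just inside the upper limit, and CG34401, of 20126 bp, just outside at 0.36 (0.12 to 0.60). By position, CG13366, which starts at 504579, was at -0.11 (-0.51 to 0.28), and vnd, which starts at 476732, at -0.05 (-0.42 to 0.30). The body colour gene y, distal to the limit, was at 0.11 (-0.55 to 0.71). The limits left out 24 X genes of the same width.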

How the data were processed

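Chromatin was sonicated to 200 to 500 bp, and libraries were size-selected at 300 to 350 bp and sequenced as single reads of 50 nt after 18 PCR cycles, per the labels' protocols. The tools named in the submitters' processing notes are Bowtie2, CASAVA 1.9, R 2.15 and FastQC 0.10, with build dm3. For the assignment of reads to genes nothing is stated in the labels. Per the file headers, the authors deposited log2 RPKM values for each gene and library. An offset of 1 was removed, since 100% of the resulting values were then whole reads within 0.01. The deposited MAnorm column, a log2 fold change by its header, behaves as a standardized score with an SD of 0.999. Gene width was taken as deposited.

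Reads, library totals and read ratios were computed with Python 3.11.15, pandas 2.3.3 and scipy 1.17.1, and the steps were tested on simulated reads. No filter on low values was applied, and all 1070 members entered. With 1 library a group no test was possible, and a call is a gene at least 1.5-fold from the arm median. Read intervals treat PCR reads as independent and cover counting error only. Members, lists and alternatives were chosen with earlier results of these data known. Named genes are, by rule, the 10 highest and 10 lowest with a symbol and 50 input reads, the extremes of the lowest and highest step and of each list, w, y, otu, ovo, mei-P26, mof and genes at the limits. 1 of the 10 highest is not reported here. Any other named gene was chosen after its values were seen. RefSeq names of Release 6 matched 1015 members by gene ID. Sequences of X regions were not used here, and the planned count of promoter motifs was not run.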

Additional observations from a re-analysis of the deposited data

How the results depend on the processing

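The median difference between the X and the arms, -0.16 on the log2 scale, kept its sign under all alternatives but the deposited MAnorm score, where it was 0.33 score units. It was -0.022 with a pseudocount of 1 and no scaling of the X, and -0.11 with a pseudocount of 5 and the X scaled. With means it was -0.18, with summed reads -0.020 (-0.067 without w), and with at least 10 dBigH1 reads -0.086. Within classes of input reads, from 150 reads up, it was -0.19. Without the 2 Mb next to each centromere it was -0.18, and for overlap-free genes within width classes -0.18. Counts of members 1.5-fold above and below, 103 and 273, were 27 and 88 at 2-fold, 64 and 179 for overlap-free genes, and 7 and 913 by library totals. By library totals 24 and 3348 of 3876 arm genes lay above and below. Against the median of all arm genes, 24.5% of overlap-free X members lay 1.5-fold below and 10.2% above. Overlap-free arm genes had 8.49% and 9.06%. At 2-fold no share of arm genes was computed. The lowest step, step 1 at -0.63, was at -0.65 for overlap-free genes, but with 9 of them it fell under the limit of 20 genes a step, which left step 20 lowest at -0.42. On the score step 1 was at -0.21. The highest, at 0.22, was 0.75 with summed reads, 0.10 for overlap-free genes (step 13, with step 15 at -0.16), 0.29 with at least 10 dBigH1 reads and 0.72 on the score, where 2 steps in place of 17 lay below 0. List medians below 0 numbered 4 in place of 7 for overlap-free genes. The X to arm ratio of input RPKM, 0.575, was 0.583 for overlap-free genes and 0.568 summed per kb, and that of dBigH1, 0.502, was 0.560 summed per kb. Among steps with at least 20 genes, the range of step medians was 0.50 on the arms without the centromere regions in place of 0.54. For overlap-free genes, without X step 1 and step 22, which fell under 20 genes, the ranges were 0.52 on the X and 0.81 on the arms. Their SDs were 0.15 and 0.14. Over the same 22 and 71 steps these ranges were 0.75 and 0.81, with SDs of 0.18 and 0.14. The cause of these shifts was not tested, apart from fewer genes under each limit. Choices of summed reads without w, of the same steps for overlap-free genes, and of width classes for steps, lists and overlap-free genes, were made after seeing the data. No paired analysis was possible because each group had 1 library. With a median of 24 dBigH1 reads, single members were resolved for large differences only.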
